A study of Homo sapiens with 5 samples.

Results

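The 10 genes described here are canonical targets of the transcriptional coactivator YAP: ANKRD1, ANKRD2, CCN1 (also known as CYR61), CCN2 (CTGF), F3, AXL, NUAK2, CRIM1, ASAP1 and NT5E. They were chosen by name, with earlier results of these data known. All 10 were found by Entrez identifier among the 23459 genes of the count table. The libraries came from MCF10A SAM cells, a mammary breast epithelial line, of which single clones had been picked after infection with dCas9-VP64 and MCP-p65-HSF1. Both groups carry these activator components, 3 NTC libraries with a non-targeting control guide and 2 sgJUN#1 libraries with 1 guide that brings the activators to the JUN promoter. The question was whether raised JUN lowers the whole set of canonical YAP targets or only some of them. Each library is a 3′ mRNA library with between 2455627 and 4988062 raw counts, so that a count reflects transcript number with little dependence on transcript length.

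YAP and its paralog TAZ are held in the cytoplasm by the Hippo kinases. Once in the nucleus they bind no DNA themselves but are brought to chromatin by TEAD transcription factors, which recognise the sequence GGAATG, often beside sites for AP-1, the dimer of JUN and FOS family proteins that reads TGAGTCA or TGACTCA. In epithelial cells YAP is known to raise secreted matricellular proteins, surface receptors and cytoskeletal regulators in response to spreading and stiffness. Much of this control runs through distal enhancers, so a promoter holds only part of it.

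In sgJUN#1 cells ANKRD1 fell 20.6-fold and no other of the 10 genes came near that size. CRIM1, ANKRD2, NUAK2, CCN1 and CCN2 had fitted levels 2.94, 3.21, 2.3, 2.18 and 1.83 times lower without passing the test over all genes. The fitted level of AXL was 1.37 times lower, with sgJUN#1 libraries that differed from each other. By the fit ASAP1 was 1.05 times, F3 1.26 times and NT5E 2.26 times higher, also without passing the test.

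Promoter sequence was listed in RefSeq (GRCh38.p14) for 7 of the 10 genes, and the 250 bases before the start of transcription were searched for GGAATG and for the AP-1 form TGANTCA, each on both strands. GGAATG occurred in 11.9% and TGANTCA in 6.6% of 35093 windows of this length over all genes. The windows shown are those of the called gene ANKRD1, of CCN2 and NUAK2, which also hold GGAATG, and of F3, which holds only TGANTCA. Capitals mark a match on either strand, and no match overlapped another.
ANKRD1, chr10:90921088-90921337, minus strand: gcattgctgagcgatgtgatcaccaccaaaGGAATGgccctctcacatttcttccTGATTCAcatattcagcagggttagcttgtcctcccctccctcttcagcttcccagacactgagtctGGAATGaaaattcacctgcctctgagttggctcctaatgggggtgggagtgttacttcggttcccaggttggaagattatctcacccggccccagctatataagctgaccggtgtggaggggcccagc
CCN2, chr6:131951373-131951622, minus strand: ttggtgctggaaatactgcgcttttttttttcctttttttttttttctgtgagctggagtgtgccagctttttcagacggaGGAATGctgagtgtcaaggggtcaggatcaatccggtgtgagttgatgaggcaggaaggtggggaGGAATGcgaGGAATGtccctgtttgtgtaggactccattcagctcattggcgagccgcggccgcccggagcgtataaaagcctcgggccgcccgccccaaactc
NUAK2, chr1:205321746-205321995, minus strand: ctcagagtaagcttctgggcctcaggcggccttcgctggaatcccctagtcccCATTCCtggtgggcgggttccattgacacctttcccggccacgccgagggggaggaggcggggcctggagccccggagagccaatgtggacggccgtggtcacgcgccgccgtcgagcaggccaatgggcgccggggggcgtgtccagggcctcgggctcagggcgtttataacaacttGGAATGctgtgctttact
F3, chr1:94541760-94542009, minus strand: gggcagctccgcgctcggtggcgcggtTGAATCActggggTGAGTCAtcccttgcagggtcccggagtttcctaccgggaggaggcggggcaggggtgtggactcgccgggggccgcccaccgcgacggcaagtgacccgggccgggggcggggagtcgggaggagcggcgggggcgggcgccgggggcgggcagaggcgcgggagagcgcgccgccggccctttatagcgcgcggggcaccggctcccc

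ANKRD1 held GGAATG at 220 and 128 bases before its start and, between them, TGATTCA at 195 bases. CCN2 held 3 copies of GGAATG, at 169, 104 and 95 bases. NUAK2 held it at 197 bases on the opposite strand and at 18 bases. F3 held TGAATCA at 223 and TGAGTCA at 210 bases and no GGAATG. Of the TGANTCA matches, only TGAGTCA in F3 was TGAGTCA or TGACTCA, so the match in ANKRD1 was of the looser form. AXL has 2 listed starts, of which 1 had GGAATG, at 212 bases on the opposite strand. The windows of NT5E and of both listed starts of ANKRD2 held neither. The 4 genes with GGAATG had log2 fold changes of -4.37 (ANKRD1), -1.20 (NUAK2), -0.87 (CCN2) and -0.46 (AXL, with it at 1 of 2 starts). The 3 without it had -1.68 (ANKRD2), 0.33 (F3) and 1.18 (NT5E). With 7 genes listed, no comparison between these groups was made.

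JUN, the gene targeted by the guide, was higher in both sgJUN#1 libraries. It ranged over NTC libraries from 9.32 to 36.2 CPM (count divided by the TMM-scaled library size, times 1e6) and reached 172 and 265 CPM under sgJUN#1, with an edgeR quasi-likelihood Benjamini-Hochberg adjusted p of 0.0733. It passed the threshold in 4 of 8 alternative fits, those with DESeq2, limma-voom, non-robust estimation and the replicate block. Of the 13616 genes tested in the same fit, 28 (0.206%) had an adjusted p under 0.05, and 17 (0.125%) were called lower in sgJUN#1. Among 8 basal-like mammary epithelial markers KRT6A, KRT5 and EGFR were abundant, at 152 CPM or more in every library. CDH1 was at 29.7 to 103 CPM, while KRT14, TP63 and KRT17 reached at most 13, 27 and 79 counts. The summed level of these 8 markers ran from 1030 to 1840 CPM in NTC and from 955 to 2100 CPM in sgJUN#1. EPCAM, another epithelial marker, was higher, at 7.33 to 23.7 CPM in NTC against 144 and 56.5 CPM in sgJUN#1, with an edgeR adjusted p of 0.210, and its part in the results below was not tested. The 4 luminal markers summed to between 57.0 and 170.0 CPM in NTC and to 53.9 and 54.7 CPM in sgJUN#1. Most of this was GATA3, at 43.1 to 154.6 CPM in NTC and 36.3 and 41.15 CPM in sgJUN#1. Of 5 fibroblast, 3 endothelial and 3 blood markers, COL1A2 had at most 1 count and PECAM1 at most 2 counts in any library, and CD3E was at 0 in all, which allows up to 1.22 CPM. DCN, at 22.8 to 87.8 CPM, was the exception in the fibroblast list, which summed to between 25.6 and 92.3 CPM in NTC and to 30.5 and 55.1 CPM in sgJUN#1. Endothelial markers summed to between 7.70 and 11 CPM in NTC and 7.51 and 9.91 CPM in sgJUN#1, with VWF, at 5.23 to 8.43 CPM over the 5 libraries, as the most abundant. Blood markers summed to between 5.32 and 8.55 CPM in NTC and 11.4 and 17.5 CPM in sgJUN#1. Most of this was CD68, which had 3.11 to 8.14 CPM in NTC and 11.4 and 16.1 CPM in sgJUN#1 (edgeR adjusted p 0.416), and its part in the results was not tested.

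All 10 YAP targets had enough counts to be tested. In that fit 1 of the 10, ANKRD1, was called, beside 0.206% of tested genes. Since the list was chosen with earlier results of these data known, this call adds no independent support. The lowest adjusted p of the other members was 0.0956, for CRIM1 (edgeR). Of the 10, 4 (ANKRD1, CCN1, NUAK2 and CRIM1) had both sgJUN#1 values under the lowest NTC value, as had 12.8% of tested genes, and 1 (NT5E) had both above the highest, as had 12.2%. The median log2 fold change of the 10 was -1.0 and that of all tested genes -0.01, with 7 of 10 and 51.0% below 0. At an unadjusted p under 0.05 there were 7 of the 10 and 1141 of the 13616 tested genes. The summed level of the 10 genes ran from 2250 to 3450 CPM in NTC and from 1970 to 2270 CPM in sgJUN#1, so the ranges of the groups overlapped in the sum.

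**Figure D1:**
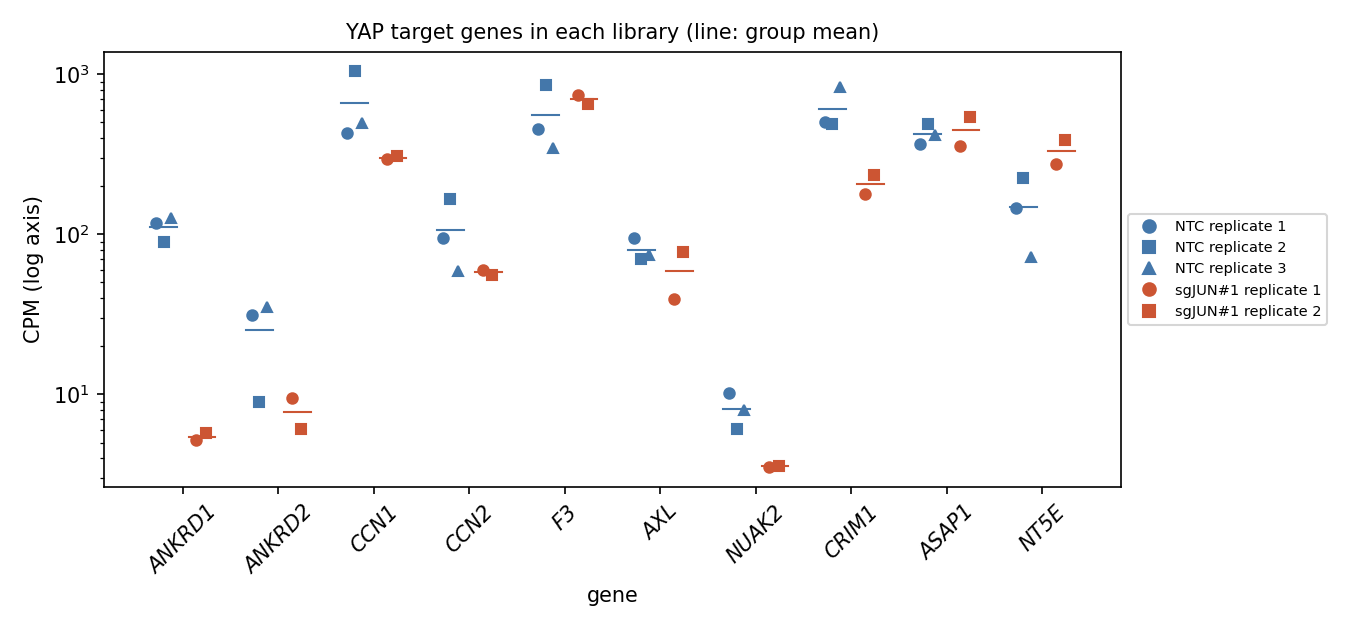
Level of each of the 10 YAP target genes in each library, in CPM on a log axis, with NTC libraries in blue, sgJUN#1 libraries in orange and a line at each group mean. ANKRD1 is separated by more than an order of magnitude, from 89.9 CPM at the lowest NTC library to 5.73 CPM at the highest sgJUN#1 library, and the groups overlap for ANKRD2, CCN2, F3, AXL and ASAP1.

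By mean level in NTC the order was CCN1, CRIM1, F3, ASAP1, NT5E, ANKRD1, CCN2, AXL, ANKRD2 and NUAK2. The first 4 of these overlapped in their NTC values, as did the next 4, from NT5E to AXL, and the last 2. In sgJUN#1 the order was F3, ASAP1, NT5E, CCN1, CRIM1, AXL, CCN2, ANKRD2, ANKRD1 and NUAK2. ANKRD1, which had been above CCN2 and AXL, then stood at 5.44 ± 0.399 CPM, under both, which were at 57.8 ± 2.86 and 58.8 ± 27.1 CPM (SD, n = 2). AXL and CCN2 overlapped in sgJUN#1, whereas both values of ANKRD1 were under both of ANKRD2.

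The ankyrin repeat proteins ANKRD1 and ANKRD2 are relatives first known from striated muscle, where they bind the sarcomere and also enter the nucleus, and ANKRD1 is widely used as a reporter of YAP activity. ANKRD1 (Entrez 27063, GRCh37 chromosome 10, 92671853 to 92680844) had 118, 89.9 and 127 CPM in NTC replicates 1 to 3 and 5.16 and 5.73 CPM in sgJUN#1 replicates 1 and 2. These rest on 430, 221 and 573 counts against 25 and 16 counts, well above the limit of 3 counts that a count of 0 allows. Its log2 fold change was -4.37 (SE 0.283), with an edgeR adjusted p of 2.2e-04, and 0.0588% of tested genes had a lower one. In bulk RNA, fewer cells that express a gene and less RNA per cell cannot be told apart.

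ANKRD2 (Entrez 26287, chromosome 10, 99332256 to 99343641) started from a lower level, with 31.4, 8.95 and 35.05 CPM in NTC and 9.49 and 6.08 CPM in sgJUN#1. NTC replicate 2 lay between the sgJUN#1 libraries, on 22 counts, while the other 2 NTC libraries were well above both. The log2 fold change was -1.68 ± 0.537 (SE) with an adjusted p of 0.422 in edgeR. Without NTC replicate 2 it was -2.06 and passed the threshold, with an edgeR adjusted p of 0.0430.

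CCN1 and CCN2 are secreted matricellular proteins that bind integrins and promote adhesion and angiogenesis, and both are induced within a short time of YAP activation. CCN1 (Entrez 3491, chromosome 1, 86046444 to 86050272) had 429, 1043 and 497 CPM in NTC and 295 and 307 CPM in sgJUN#1. Both sgJUN#1 libraries lay under all 3 NTC libraries, and NTC replicate 2 stood far above the other 2. The log2 fold change was -1.12 ± 0.364 (SE) with an adjusted p of 0.427 in edgeR.

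CCN2 (Entrez 1490, chromosome 6, 132269316 to 132272512) had 95.2, 166 and 59.2 CPM in NTC and 59.9 and 55.8 CPM in sgJUN#1. NTC itself spread widely, and NTC replicate 3 fell between the sgJUN#1 libraries. Its log2 fold change was -0.87 ± 0.381 (SE) with an adjusted p of 0.590 in edgeR. With NTC replicate 2 left out, CCN1 stood at -0.62 and CCN2 at -0.41 on the log2 scale.

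The membrane proteins are F3, CRIM1, AXL and NT5E, none of which passed the test with all 5 libraries. F3 encodes tissue factor, the cell-surface starter of blood clotting. F3 (Entrez 2152, chromosome 1, 94994729 to 95007315) had 456, 860.4 and 348 CPM in NTC and 746 and 651 CPM in sgJUN#1. The sgJUN#1 libraries lay inside the NTC range, and the log2 fold change was 0.33 ± 0.341 (SE) with an adjusted p of 0.840 in edgeR. It was 0.80 without NTC replicate 2 and 0.09 without NTC replicate 3.

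CRIM1 is a transmembrane protein that binds bone morphogenetic proteins. CRIM1 (Entrez 51232, chromosome 2, 36582921 to 36778278) had 502, 486 and 832 CPM in NTC and 179 and 234 CPM in sgJUN#1, with both sgJUN#1 libraries below every NTC library. The log2 fold change was -1.56 (SE 0.284), and the edgeR adjusted p of 0.0956 was the next lowest of the 10 after ANKRD1. CRIM1 passed the threshold with DESeq2 (7.1e-05), without a filter on low counts (edgeR adjusted p 6.0e-04), with the replicate number as a block (0.0101) and without NTC replicate 3 (0.0225), with log2 fold changes from -1.56 to -1.26 in these fits. The 3′ part of CRIM1 overlaps FEZ2 on the other strand, and how strand was treated in counting is not stated. FEZ2 had 58.3 to 86.3 CPM in NTC and 62.7 and 68.0 CPM in sgJUN#1.

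AXL is a receptor tyrosine kinase for GAS6. AXL (Entrez 558, chromosome 19, 41725128 to 41767671) had 95.2, 70.0 and 74.5 CPM in NTC and 39.6 and 78.0 CPM in sgJUN#1. The sgJUN#1 libraries stood apart from each other, since replicate 2 lay within the NTC range and replicate 1 under it. The log2 fold change of -0.46 ± 0.295 (SE) with an adjusted p of 0.737 in edgeR was -0.04 without sgJUN#1 replicate 1 and -1.01 without sgJUN#1 replicate 2.

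NT5E encodes CD73, the surface enzyme that forms adenosine from AMP, and was the member with the highest fold change. NT5E (Entrez 4907, chromosome 6, 86159302 to 86205509) had 146, 226 and 72.1 CPM in NTC and 276 and 390.3 CPM in sgJUN#1. The lower of the sgJUN#1 values exceeded the highest NTC value, on an NTC spread of 76.9 CPM (SD, n = 3) around 148 CPM. The log2 fold change was 1.18 ± 0.414 (SE) with an adjusted p of 0.489 in edgeR, and 98.5% of tested genes had a lower one.

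The intracellular members were NUAK2, a kinase related to AMPK that acts on the actin cytoskeleton, and ASAP1, a GTPase-activating protein for ARF proteins at focal adhesions. NUAK2 (Entrez 81788, chromosome 1, 205271191 to 205290873) was the least abundant of the 10, at 10.2, 6.11 and 7.99 CPM in NTC and 3.51 and 3.58 CPM in sgJUN#1. These rest on 37, 15 and 36 counts against 17 and 10 counts. The groups did not overlap, and the log2 fold change was -1.20 ± 0.391 (SE) with an adjusted p of 0.416 in edgeR.

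ASAP1 (Entrez 50807, chromosome 8, 131064350 to 131455920) had 368, 490.04 and 415 CPM in NTC and 358 and 537 CPM in sgJUN#1. The sgJUN#1 libraries lay on either side of the NTC libraries. Its log2 fold change was 0.08 ± 0.230 (SE) with an adjusted p of 0.960 in edgeR, with a sign that changed without NTC replicate 1 (-0.02) and without sgJUN#1 replicate 2 (-0.24).

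**Figure D2:**
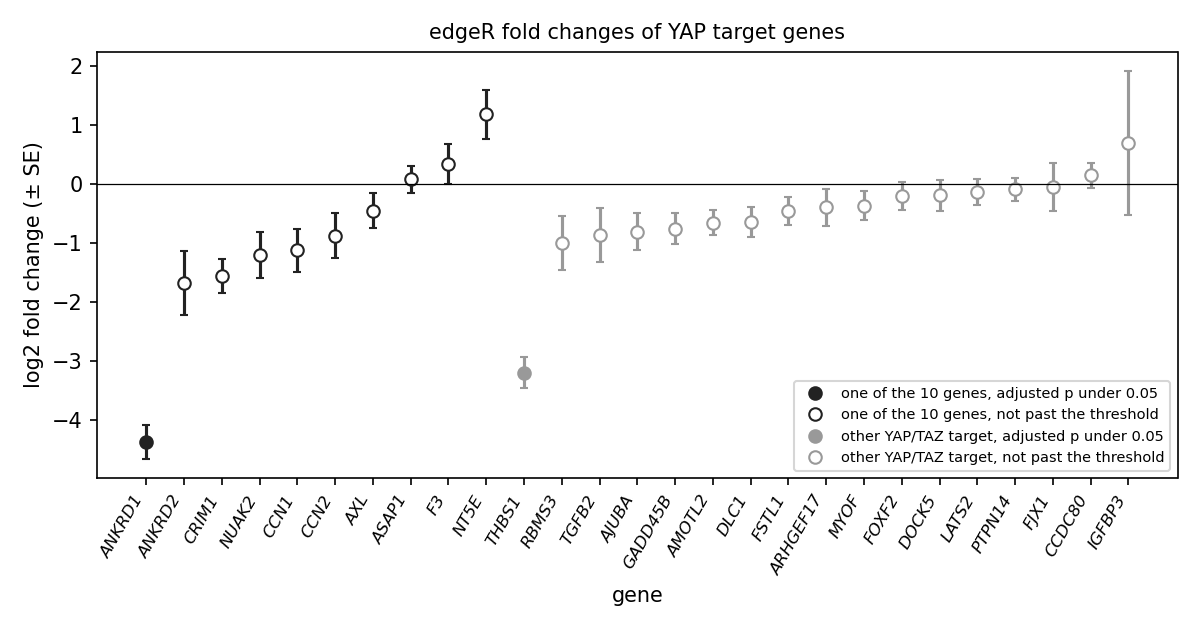
Log2 fold change of sgJUN#1 over NTC from edgeR, with its SE, for the 10 YAP target genes (black) and 17 other YAP/TAZ target genes (grey). Filled circles, ANKRD1 at -4.37 and THBS1 at -3.19, have an adjusted p under 0.05 over all tested genes, and the other members run from -1.68 for ANKRD2 to 1.18 for NT5E.

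To place each target beside ANKRD1, its level was expressed relative to ANKRD1 in the same library, as a difference of log2 CPM with a prior count of 2. All 9 genes were higher relative to ANKRD1 in both sgJUN#1 libraries than in every NTC library, but so were 99.9% of the 13615 other tested genes, since all such differences carry the fall of ANKRD1 itself. The count of 9 is therefore no result about these genes, and the exact two-sided permutation p of 0.1 of each, the smallest that 3 against 2 libraries allow and 0.1 after Benjamini-Hochberg adjustment over the 9 pairs, adds nothing to it. The sizes can be read against the median shift over those genes, 4.22 on the log2 scale. The shift was smallest for CRIM1, from 2.40 ± 0.31 in NTC (SD, n = 3) to 5.1 ± 0.18 in sgJUN#1 (SD, n = 2), a difference of 2.69. It was 2.78 for ANKRD2, 3.16 for NUAK2, 3.21 for CCN1, 3.46 for CCN2 and 3.71 for AXL, all under that median. The shift was 4.27 for ASAP1, 4.65 for F3 and 5.51 for NT5E, above it. Whether a gene's shift differs from the median was not tested.

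**Figure D3:**
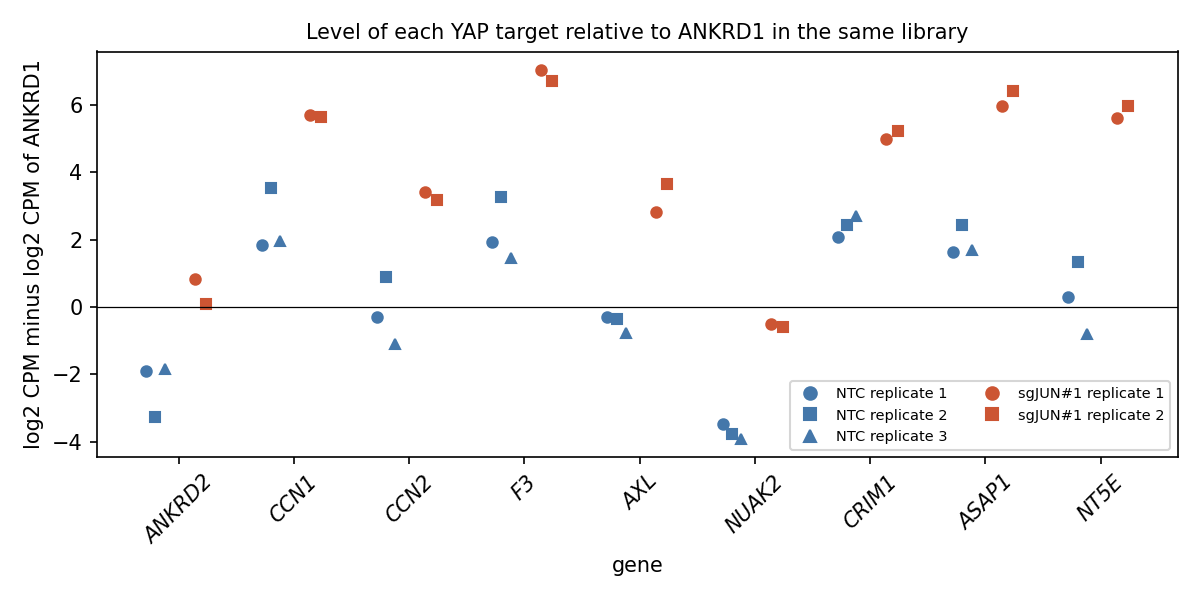
Difference between the log2 CPM of each gene and that of ANKRD1 in the same library, with NTC in blue and sgJUN#1 in orange. For each of the 9 genes both sgJUN#1 libraries lie above the 3 NTC libraries, as for 99.9% of other tested genes, by mean differences from 2.69 for CRIM1 to 5.51 for NT5E beside a median of 4.22 over all of those genes.

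For single genes the exact two-sided permutation test on log2 CPM gave p = 0.1, the smallest possible, for ANKRD1, NUAK2 and CRIM1, p = 0.2 for CCN1 and NT5E, and between 0.3 and 0.8 for ANKRD2, CCN2, F3, AXL and ASAP1. The coefficient of variation in NTC was 17.4% for ANKRD1, 16.8% for AXL and 14.5% for ASAP1, but 48.7% for F3, 50.9% for CCN2, 51.3% for CCN1, 52.0% for NT5E and 56.2% for ANKRD2. NUAK2 and CRIM1 lay between, at 25.2% and 32.2%. CCN1, CCN2, F3, ASAP1 and NT5E were each highest in replicate 2 among the NTC libraries, and the other 5, ANKRD1, ANKRD2, AXL, NUAK2 and CRIM1, were each lowest in it. NTC replicate 2 was also the shallowest of the 5 libraries, with 2455627 counts, and its part in these values was not tested beyond leaving it out.

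**Figure D4:**
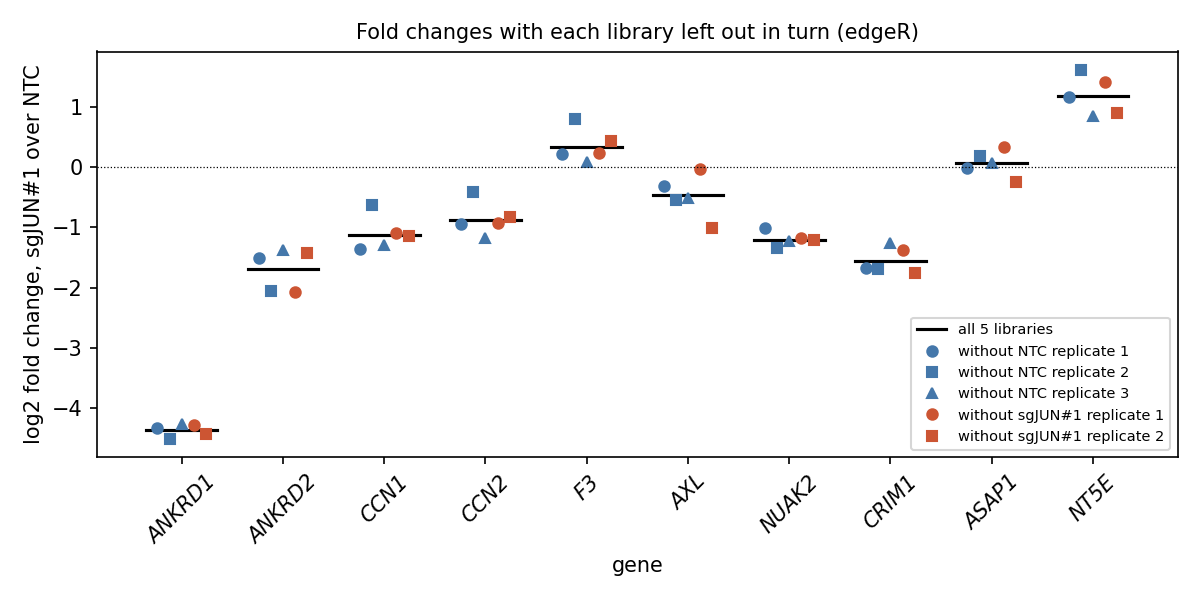
Log2 fold change of each gene with all 5 libraries (black line) and with each library left out in turn (blue, an NTC library; orange, an sgJUN#1 library). ANKRD1 stayed between -4.50 and -4.26, whereas CCN1 and CCN2 moved to -0.62 and -0.41 without NTC replicate 2 and AXL to -0.04 without sgJUN#1 replicate 1.

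For the same guide comparison, the study reported from a gene set analysis that YAP target genes were the set lowered most strongly. With JUN expressed from cDNA, it reported lower ANKRD1 and THBS1 mRNA by qRT-PCR. No gene set was tested here. In a separate experiment with YAP5SA, a YAP mutant that the Hippo kinases cannot restrain, the study sorted YAP-induced genes into 3 clusters. The sorting was by their expression with and without added JUN. By the study's account, added JUN fully blunted the induction of cluster 1 and had little or no effect on cluster 2. It describes cluster 3 as mostly known targets of AP-1. Of the 10 genes, ANKRD2 and NUAK2 are listed in cluster 1, CCN1, CCN2, CRIM1 and F3 in cluster 2, and NT5E in cluster 3. ANKRD1, AXL and ASAP1 were not found in these clusters. In the libraries analysed here the log2 fold changes were -1.68 and -1.20 for the genes of cluster 1, from -1.56 to 0.33 for those of cluster 2 and 1.18 for that of cluster 3. Within cluster 2, CRIM1 and CCN1 had both sgJUN#1 values under the lowest NTC value, as had 12.8% of all tested genes. Neither passed the edgeR test with all 5 libraries, and CCN2 and F3 overlapped between the groups. The clusters have too few of these genes for a comparison between them.

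Among 17 other known YAP/TAZ target genes, all of which were tested, 1 was called, THBS1, and 15 had a log2 fold change below 0. Over all tested genes 0.206% were called and 51.0% were below 0. This list was also chosen with earlier results of these data known, so the call of THBS1 adds no independent support. The median of the 17 was -0.40, beside -1.0 for the 10 genes and -0.01 for all tested genes. THBS1, which encodes the matricellular protein thrombospondin 1, fell from 223, 280.02 and 179 CPM in the NTC replicates to 23.3 and 26.5 CPM with the JUN guide, or by the fit -3.19 ± 0.268 (SE) with an adjusted p of 0.00112 in edgeR. The next lowest was RBMS3, an RNA-binding protein, at -1.01 (edgeR adjusted p 0.622). The highest was IGFBP3, which binds insulin-like growth factors, at 0.69 (SE 1.22), with 7.32 to 137 CPM in NTC and 165 and 20.0 CPM in sgJUN#1, followed by CCDC80, a matrix protein, at 0.15. Of the 17, 5 had both sgJUN#1 values under the lowest NTC value, beside 12.8% of all tested genes. These were THBS1, AMOTL2, GADD45B, DLC1 and FSTL1, a set named once the values were known.

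The genes for YAP, TAZ, the TEAD proteins that bring them to DNA and the cofactors VGLL3 and VGLL4 did not pass the edgeR test. Of 8 tested (YAP1, WWTR1, which encodes TAZ, TEAD1 to TEAD4, VGLL3 and VGLL4), 0 were called by edgeR, by DESeq2 or by limma-voom. Those fits called 28, 143 and 20 of the 13616 tested genes. At an unadjusted edgeR p under 0.05 there were 1141 of all tested genes and 1 of the 8. That gene was VGLL3, a cofactor that competes for TEAD, at -0.82 ± 0.276 (SE) with an adjusted p of 0.438 in edgeR. The next lowest was TEAD3 at -0.69, whose groups overlapped. YAP1 ranged from 112 to 147 CPM over the NTC libraries and was at 144 and 136 CPM with the JUN guide, a log2 fold change of 0.09, and VGLL4 had the highest, 0.27. WWTR1 was at -0.11 and TEAD1 at -0.43. VGLL3, TEAD1 and WWTR1, 3 of the 8, had both sgJUN#1 values under the lowest NTC value, beside 12.8% of all tested genes. The summed level of the 8 genes ran from 778 to 927 CPM in NTC and from 678 to 716 CPM in sgJUN#1, with no overlap. In mean CPM the largest falls within it were those of TEAD1, from 306 to 228, and VGLL3, from 106.5 to 60.5. YAP1 and VGLL4 had higher means in sgJUN#1. How often sums of other genes separate in this way was not tested.

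The genes outside these lists whose pattern over the 5 libraries was most like that of ANKRD1, by Euclidean distance of log2 CPM centred on the NTC mean, were MROH1 (distance 0.859), TNK2 (1.37) and DHRS9 (1.37). DHRS9, a short-chain dehydrogenase, had 25.6, 17.1 and 69.2 CPM in NTC and 1.86 and 0.716 CPM in sgJUN#1. Its sgJUN#1 values rest on 9 and 2 counts, and with a log2 fold change of -4.72 (SE 0.818) it did not pass the test (edgeR adjusted p 0.109). MROH1 and TNK2, a cytoplasmic tyrosine kinase, were lower by the fit at -4.50 and -5.18 on the log2 scale (adjusted p 9.8e-04 and 3.5e-05, edgeR).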

How the data were processed

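The authors made 3′ mRNA libraries with the QuantSeq FWD kit. The submitters' processing notes name cutadapt (4.2), Bowtie2 (2.3.5.1) and hg19. What the authors deposited is a table of raw counts with Entrez identifiers. The study's RNA-seq methods give countOverlaps for counting, but describe poly(A) libraries. Whether it was used for these 3′ libraries, the annotation, the strand setting and use of molecular identifiers are not given in the sources used here, so floors and counts cover counting error only.

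Symbols came from RefSeq (23308 of 23459 genes, 99.36%), positions from GENCODE 44 on GRCh37, which corresponds to hg19. Counts were tested in edgeR 4.0.16 by quasi-likelihood (R 4.3.3, TMM, filterByExpr, robust, group only), which kept 13616 genes. P-values were adjusted by Benjamini-Hochberg over all tested genes, with a threshold of 0.05. Each SE was taken as |log2 fold change| over the root of the F statistic. The common dispersion was 0.0495. DESeq2 1.42.0, limma-voom (limma 3.58.1), other scalings and filters, the replicate block and each library left out were alternatives. The scripts were tested on simulated data. A count of 3, the limit that a count of 0 allows, equals 0.619 to 1.22 CPM. The study calls the replicates of this comparison biological replicates. Neither it nor the labels say whether these were separate cultures, so p-values measure only the spread between these libraries. The study's account of this comparison counts fewer replicates than the 3 NTC libraries labelled, and all 3 were used. Replicate pairs differed by more than counting noise (chi-square per degree of freedom at least 7.62).

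Besides the 10 genes, the text names JUN, called or extreme genes of the other lists, the cell markers and the 3 genes most like ANKRD1. Members and lists were chosen with earlier results of these data known.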

Additional observations from a re-analysis of the deposited data

How the results depend on the processing

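ANKRD1 kept its direction and its call in all 13 alternatives, with log2 fold changes from -4.50 to -4.27 and adjusted p-values from 1.6e-30 to 0.00791. The number of called genes among the 10 was 2 with DESeq2, with no filter and with the replicate block, where CRIM1 was added, and ran from 1 to 2 when single libraries were dropped. There CRIM1 was added without NTC replicate 3 and ANKRD2 without NTC replicate 2. Over all tested genes the count was 143 with DESeq2, 148 with no filter, 18 when every library had to reach 10 counts and 103 with the replicate block. It ran from 10 to 57 with a library left out, with 10, 56 and 57 without NTC replicate 1, 2 and 3. For these changes the cause was not tested. The log2 fold change of ASAP1 ran from -0.24 to 0.34 with a library left out, and changed sign in 2 of those fits. No other member changed sign in its 13 alternatives. Where 1 sgJUN#1 library remained, it was assumed to vary like the NTC libraries. The median of the 10 genes was -0.58 without NTC replicate 2. Relative to ANKRD1, where the fall of ANKRD1 sets the direction, only AXL moved by more than the replicate spread, to 3.30 and 4.12 without sgJUN#1 replicate 2 and 1.

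NTC and sgJUN#1 share the replicate numbers 1 and 2, and no label ties a number to a day or batch. The deposited column names of the 2 groups are numbered consecutively within replicate 1 and within replicate 2. Libraries of the same replicate may thus have been handled together, but what this numbering stands for is not stated. The differences between replicates 1 and 2 in NTC and in sgJUN#1 correlated over genes at 0.0146. With 1 such difference per group this cannot exclude a pairing. The main fit took the samples as unpaired, and the replicate block was an alternative. The replicate block uses NTC replicate 3 for no contrast. Counts of 10 to 37 for NUAK2 and 16 and 25 for ANKRD1 in sgJUN#1 limit the precision of those values.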
